A study of Mus musculus with 62 samples.

Results

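The imprinted genes of the brain followed here were Peg3, Ndn, Nnat, Snrpn, Nap1l5, Gnas, Impact and Zdbf2. They were taken as the rows of the count table whose Ensembl identifiers map to these symbols. All 8 of them were found among the 11121 counted genes. The set was chosen by symbol with measured counts of these same libraries already known, the single high Peg3 library and the differences between groups included, and the weight given to each value is not recorded. Every difference between the 4 groups is therefore given for these genes as a description. Their calls in the fits over all genes are counted beside the number or share of all genes called, and nothing is read from them.

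Genomic imprinting marks a gene in the germ line, mostly by DNA methylation of an imprinting control region, so that the copy from one parent is silent. Imprinted genes are best known for their roles in growth, feeding, maternal behavior and hormone secretion, and many are strong in neurons of the hypothalamus. Most genes followed here are transcribed from the paternal copy, while Gnas makes several transcripts whose parental bias depends on the promoter and the tissue.

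RNA of mouse prefrontal cortex (PFC) and of nucleus accumbens (NAc) was measured by BRB-seq, which reads transcript 3′ ends and pools samples once each carries a barcode. All mice were wild-type C57BL/6j animals of 15 weeks. Unstressed controls (CTR) gave 15 PFC and 16 NAc libraries, and mice after multimodal chronic restraint stress (mCRS) gave 15 PFC and 16 NAc libraries. In an inbred strain the maternal and paternal copies cannot be told apart, so the counts give the level of a gene and not its imprint. Library totals lay between 945286 and 4857359 counts, and values are CPM, reads scaled to a common total, on library sizes scaled by the trimmed mean of M values (TMM). The study took PFC and NAc tissue from the same animals, so the regional comparisons and the interaction share mice. Nothing in the labels names which libraries come from the same mouse. That pairing could not be placed in the fits, and p-values take the libraries as separate.

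The regional labels were compared with marker genes, and 1 library went against its label. The summed CPM of 11 genes of striatal projection neurons lay between 392 and 1465 in the PFC libraries and between 2968 and 8892 in the other 31 NAc libraries, but was 594 in the library labelled NAc CTR 7. The dopamine receptor gene Drd1 stood at 0.41 CPM there (1 count), against 63.6 to 259.6 CPM in the other NAc libraries. A list of 10 genes of cortical excitatory neurons summed to 172 CPM in the same library, below all PFC libraries (3145 to 4818) and below the other NAc libraries (364 to 1282). A list of 10 counted genes of the hypothalamus, out of 16 listed, summed to 3824 CPM in it and to at most 1936 CPM in the other NAc libraries. In that list the peptide hormone genes Avp (914 CPM) and Oxt (1455 CPM) made up 2369 CPM of the sum in NAc CTR 7. Both were highest there, as were Trh, Gal, Hap1 and Baiap3. Nkx2-1, Lhx6, Nts and Sst of the same list were highest in other NAc libraries. Peg3 was unremarkable in NAc CTR 7, at rank 20 of the 32 NAc libraries. Fold changes that this library moved most are given with and without it.

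**Figure D1:**
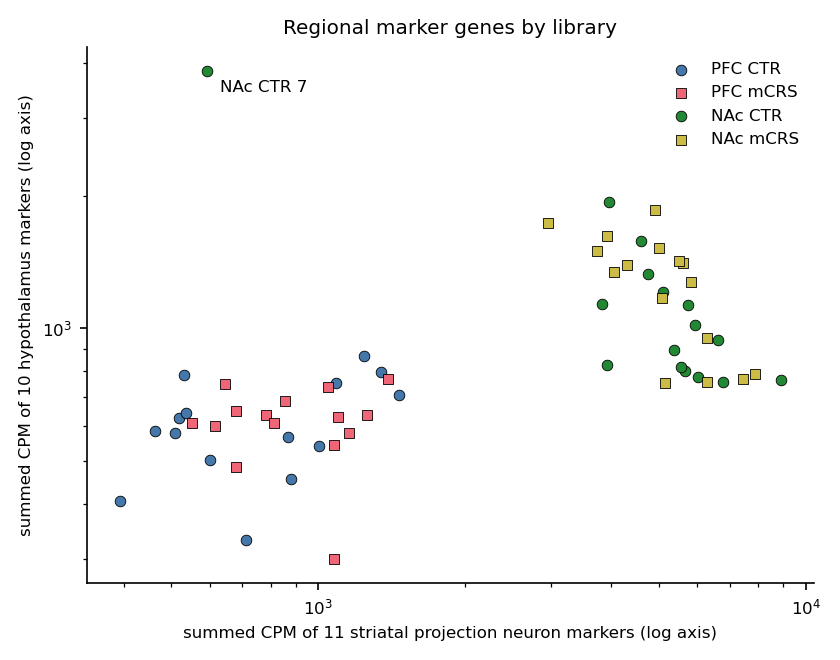
Summed CPM of 11 markers of striatal projection neurons (x axis, log scale) and of 10 markers of the hypothalamus (y axis, log scale), 1 point per library, colored by group. The library labelled NAc CTR 7 lies at 594 CPM on the x axis, within the range of the PFC libraries, and at 3824 CPM on the y axis, above all others. The hypothalamus list includes Sst, which had a median of 526 CPM in PFC CTR and 442 CPM in NAc CTR.

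PFC mCRS 3 also stood apart, most of all in Peg3. It had counts for 71.2% of the genes, where PFC mCRS libraries ran from 69.7% to 93.0% (median 84.1%). In PFC mCRS 3, Peg3 had 24992 counts, which is 1.77% of the 1412022 counts of that library and gave it rank 5 among the genes of that library. The highest Peg3 count in any other library was 2707. Its level of 20961 CPM was 82.1-fold the median of the other PFC libraries (255 CPM), and the next PFC library had 549.6 CPM. Among 3746 genes with a PFC median of at least 50 CPM, this was the largest ratio of the highest library to the median of the rest, followed by Bdnf in PFC mCRS 9 (72.8-fold) and Cct8 in PFC CTR 1 (70.2-fold). The other 7 imprinted genes did not share it, with Ndn at 117 CPM, Nnat at 209 CPM and Gnas at 2039 CPM in that library. Usp29, which starts beside Peg3 on the opposite strand, stood at 10.1 CPM (12 counts). Other values were high in the same library. The 5 counted genes of the septum and preoptic area summed to 176 CPM there. In the other 29 PFC libraries they summed to between 0.553 and 103 CPM. Of these genes Zic1 had 73.0 CPM and Trpc4 72.1 CPM there, and Trpc4 reached 92.1 CPM in PFC CTR 15. Dlk1 (42.8 CPM, 51 counts) and Avp (20.1 CPM, 24 counts) were the highest of the PFC, Avp beside 19.8 CPM in the next library. The 10 hypothalamus markers together summed to 601 CPM there, within the 300 to 867 CPM of the other PFC libraries. The part of these values in the Peg3 value was not tested.

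**Figure D2:**
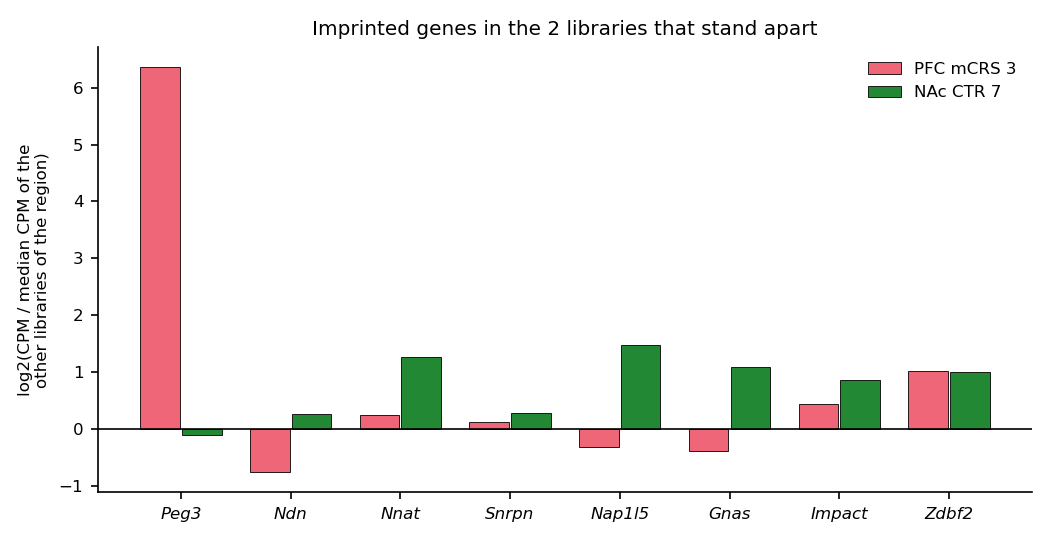
Level of the 8 genes in PFC mCRS 3 and in NAc CTR 7 as the log2 of the ratio to the median CPM of the other libraries of the same region (y axis). In PFC mCRS 3 the bar of Peg3 reaches 6.36 and that of Ndn -0.76, while in NAc CTR 7 Nap1l5 (1.48), Nnat (1.27) and Gnas (1.08) have the tallest bars.

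Peg3 encodes a zinc finger protein that is needed for maternal care and growth. The gene (ENSMUSG00000002265) lies on the minus strand of GRCm38 chromosome 7 from 6703892 to 6730431, with 10 exon blocks. Its CPM in PFC CTR libraries ran from 25.3 to 549.6 with a median of 261, and in PFC mCRS libraries from 41.3 to 20961 with a median of 238. In NAc CTR libraries it ran from 205 to 837 with a median of 423, and in NAc mCRS libraries from 213 to 529.9 with a median of 384. The medians of the PFC groups are close, and only PFC mCRS 3 lies above the CTR range. That library held 86.5% of the summed CPM of its group and 59.0% of all PFC counts of Peg3. The mean of PFC mCRS was 1616 CPM with it and 234 ± 126 CPM (SD, n = 14) without it, beside 281 ± 129 CPM (SD, n = 15) in PFC CTR.

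The fitted differences of Peg3 turned on that library. In edgeR the log2 fold change of mCRS against CTR in the PFC was 2.59 (SE 0.59), and without PFC mCRS 3 it was -0.25 (SE 0.27). DESeq2, which replaced the outlying count, gave -0.22 (SE 0.28). The difference of NAc minus PFC in mCRS mice was -2.17 (SE 0.54) with the library and 0.66 (SE 0.22) without it, and in CTR mice, where it plays no part, 0.65 (SE 0.22). Once it was left out, the sign of the regional difference was thus alike in both treatments, with Peg3 higher in the NAc. The interaction of region and treatment moved from -2.81 (SE 0.63) to -0.0015 (SE 0.33). In the NAc the difference of mCRS from CTR was -0.25 (SE 0.16), and -0.16 (SE 0.16) without the highest library, NAc CTR 4.

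Zdbf2, another zinc finger gene, is known from mice to promote feeding and growth after birth. It lies on chromosome 1 from 63273265 to 63314576 on the plus strand (ENSMUSG00000027520, 7 exon blocks). Its CPM ran from 0 to 125 with a median of 28.9 in PFC CTR and from 3.33 to 113 with a median of 57.3 in PFC mCRS. In the NAc it ran from 26.2 to 165 (median 84.9) in CTR and from 5.93 to 178 (median 88.6) in mCRS. The counts behind these values ran from 0 to 538, and all groups overlapped. NAc minus PFC was 0.95 (SE 0.47) on the log2 scale in CTR, 0.87 (SE 0.48) without NAc CTR 7, its highest library there, and 0.76 (SE 0.44) in mCRS (0.66, SE 0.45, without NAc mCRS 11), with 15 of 16 NAc CTR libraries and 11 of 16 NAc mCRS libraries above the PFC median of the same treatment. The difference of mCRS from CTR was 0.21 (SE 0.59) in the PFC and 0.41 (SE 0.61) without its highest library, PFC CTR 12. In the NAc it was -0.01 (SE 0.32), -0.11 (SE 0.33) without the highest, NAc mCRS 11, and 0.10 (SE 0.33) without NAc CTR 7, so its sign rested on single libraries.

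**Figure D3:**
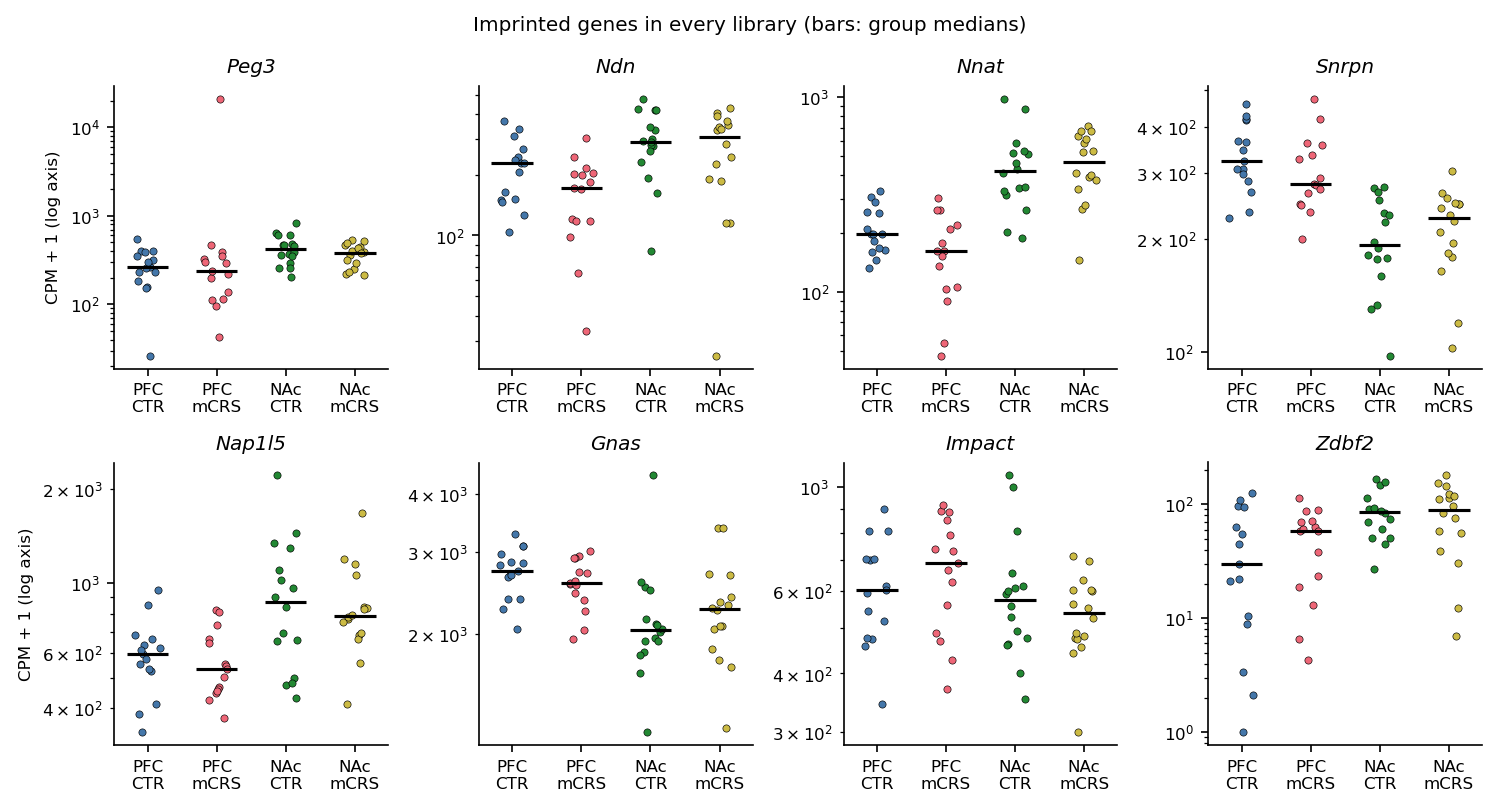
CPM plus 1 (y axis, log scale, a scale of its own for each gene) of the 8 imprinted genes in every library of the 4 groups, with bars at the group medians. Nnat and Nap1l5 sit higher and Snrpn lower in the NAc than in the PFC, and a single PFC mCRS library lies far above the others for Peg3, at 20961 CPM.

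Nnat encodes neuronatin, a small membrane protein of the endoplasmic reticulum, and Nap1l5 a neuronal relative of nucleosome assembly proteins. Both lie within the span of a larger gene on the opposite strand. Nnat (ENSMUSG00000067786, chromosome 2, 157560078 to 157562522, plus strand, 3 exon blocks) is within Blcap, and Nap1l5 (ENSMUSG00000055430, chromosome 6, 58905233 to 58907076, minus strand, 1 exon block) is within Herc3. Neither shares exon bases with its host. Between libraries, with group means subtracted, r was -0.04 for Nnat with Blcap and -0.23 for Nap1l5 with Herc3 (n = 62).

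Promoters of 7 of the genes, 14 windows of 300 bases, were matched in the RefSeq table (GRCm38.p6), from 250 bases before to 50 bases after each start. They are shown for Nnat and Nap1l5, whose levels moved together, and for Snrpn, which had the opposite regional sign. Capitals mark TGCCGC on either strand, which appears as GCGGCA on the other strand. TGCCGC is the word that ZFP57 reads in methylated imprinting control regions. The windows lie at chr2:157559828-157560127 on the plus strand (Nnat), chr6:58907077-58907376 on the minus strand (Nap1l5) and chr7:60005150-60005449 on the minus strand (Snrpn), and are printed 5′ to 3′.
Nnat: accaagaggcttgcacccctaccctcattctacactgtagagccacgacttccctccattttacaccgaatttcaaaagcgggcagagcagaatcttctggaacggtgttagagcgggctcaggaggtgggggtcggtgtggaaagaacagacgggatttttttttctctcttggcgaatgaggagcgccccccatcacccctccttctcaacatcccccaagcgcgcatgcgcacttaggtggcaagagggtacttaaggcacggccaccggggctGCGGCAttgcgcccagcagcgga
Nap1l5: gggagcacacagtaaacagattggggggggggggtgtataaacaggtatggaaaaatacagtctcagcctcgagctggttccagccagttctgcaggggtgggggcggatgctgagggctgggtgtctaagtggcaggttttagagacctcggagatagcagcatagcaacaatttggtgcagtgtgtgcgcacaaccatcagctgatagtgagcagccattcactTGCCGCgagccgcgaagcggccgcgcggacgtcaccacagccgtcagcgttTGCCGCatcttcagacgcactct
Snrpn: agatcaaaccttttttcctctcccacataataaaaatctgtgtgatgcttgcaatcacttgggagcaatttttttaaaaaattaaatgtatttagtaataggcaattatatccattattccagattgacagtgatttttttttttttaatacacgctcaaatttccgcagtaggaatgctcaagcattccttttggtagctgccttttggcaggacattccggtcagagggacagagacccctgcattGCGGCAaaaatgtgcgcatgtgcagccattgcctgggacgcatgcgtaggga
Nnat and this Snrpn window hold the word 1 time, Nap1l5 holds it 2 times, and 1 of the 2 Zdbf2 windows holds it 3 times. The other 10 windows, those of Peg3, Ndn and Gnas among them, hold none. Of all 32851 promoters of this length, 11.6% hold it. GCCATNTT, a form of the YY1 motif, was in none of the 14 windows on either strand and in 6.05% of all promoters. The Nnat and Nap1l5 windows each hold 17 CpG pairs, at percentile 68.6 of all promoters, and the Snrpn window shown holds 7, the median of all promoters.

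Nnat and Nap1l5 were both higher in the NAc. Nnat ran from 132 to 331 CPM (median 199) in PFC CTR, from 46.1 to 305 CPM (median 161) in PFC mCRS, from 188 to 982 CPM (median 416) in NAc CTR and from 145 to 713 CPM (median 466) in NAc mCRS. Of the NAc libraries, 12 of 16 in CTR and 13 of 16 in mCRS lay above every PFC library of the same treatment, although the ranges overlapped. NAc minus PFC was 1.10 (SE 0.19) on the log2 scale in CTR, 0.98 (SE 0.18) without NAc CTR 7, and 1.52 (SE 0.22) in mCRS.

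Nap1l5 ran from 334 to 952 CPM (median 593) in PFC CTR, from 370.3 to 820.1 CPM (median 533) in PFC mCRS, from 429 to 2203 CPM (median 871) in NAc CTR and from 412 to 1666 CPM (median 784) in NAc mCRS. In each treatment 7 of the 16 NAc libraries lay above all PFC libraries and the rest overlapped them. NAc minus PFC was 0.67 (SE 0.18) in CTR, 0.53 (SE 0.16) without NAc CTR 7, and 0.59 (SE 0.15) in mCRS. Differences of mCRS from CTR were -0.06 (SE 0.15) in the PFC and -0.14 (SE 0.17) in the NAc, and the latter was 0.01 (SE 0.16) without NAc CTR 7. For Nnat they were -0.36 (SE 0.23) and 0.05 (SE 0.19), the latter 0.18 (SE 0.18) without that library.

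Snrpn and Ndn both belong to the imprinted cluster of chromosome 7 whose human counterpart is lost in Prader-Willi syndrome. Snrpn (ENSMUSG00000102252, 59982495 to 60140219, minus strand, 12 exon blocks) encodes SmN, a splicing protein of neurons, and shares 216 exon bases with Snurf and 589 with Gm38393, which are not among the counted genes. Ndn (ENSMUSG00000033585, 62346569 to 62350262, plus strand, 1 exon block) encodes necdin, a protein of the MAGE family found in neurons after mitosis. The regional difference of one ran against that of the other.

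Snrpn ran from 227 to 459 CPM (median 323) in PFC CTR, from 199.9 to 473 CPM (median 279.7) in PFC mCRS, from 96.8 to 275 CPM (median 192) in NAc CTR and from 102 to 304 CPM (median 227) in NAc mCRS. All 16 NAc CTR libraries lay below the PFC CTR median and 10 of them below the lowest PFC CTR library, and in mCRS 15 of 16 lay below the PFC median. NAc minus PFC was -0.74 (SE 0.16) in CTR and -0.53 (SE 0.17) in mCRS. Leaving out its highest library gave -0.71 (SE 0.16) and -0.46 (SE 0.17). The differences of mCRS from CTR were -0.11 (SE 0.16) in the PFC and 0.10 (SE 0.17) in the NAc.

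Ndn ran from 103 to 371 CPM (median 227) in PFC CTR, from 32.5 to 302 CPM (median 171) in PFC mCRS, from 82.6 to 475 CPM (median 290.4) in NAc CTR and from 24.3 to 426 CPM (median 308) in NAc mCRS. Of the PFC mCRS libraries 13 of 15 lay below the PFC CTR median and 3 below all CTR libraries. The log2 fold change in the PFC was -0.40 (SE 0.24), and leaving out single libraries moved it between -0.50 and -0.33. Ndn also moved with the share of genes detected in a PFC library (r = 0.54 with group means subtracted, n = 30). The median share was 86.3% in CTR and 84.1% in mCRS. With log2 library size as a covariate the fold change was -0.24 (SE 0.25), and the part of depth in it was not tested further. NAc minus PFC was 0.47 (SE 0.20) in CTR and 0.73 (SE 0.26) in mCRS, and in the NAc mCRS minus CTR was -0.14 (SE 0.22).

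Gnas encodes the stimulatory G protein alpha subunit, which links receptors to adenylyl cyclase, and further transcripts from other promoters of the locus. It lies on chromosome 2 from 174284320 to 174346744 on the plus strand (ENSMUSG00000027523, 19 exon blocks), and 3′ counts do not separate its transcripts. The counted antisense gene Gm20721 shares 1469 of its exon bases and the strand setting of the counting is not given in the sources used here, so reads of these genes cannot be told apart with certainty. Gm20721 was low, with a median of 9.9 CPM and at most 121 CPM. Gnas ran from 2044 to 3277 CPM (median 2722) in PFC CTR, from 1943 to 3009 CPM (median 2576.5) in PFC mCRS, from 1224 to 4389.9 CPM (median 2031) in NAc CTR and from 1247 to 3382 CPM (median 2263) in NAc mCRS.

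The highest Gnas value of all was that of NAc CTR 7, and 15 of 16 NAc CTR libraries lay below the PFC CTR median. NAc minus PFC was -0.32 (SE 0.11) in CTR and -0.42 (SE 0.09) without NAc CTR 7, and -0.18 (SE 0.10) in mCRS. In the NAc mCRS minus CTR was 0.07 (SE 0.11) with that library and 0.18 (SE 0.10) without it. In the PFC it was -0.06 (SE 0.09), where the groups overlapped over nearly their whole range.

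Impact encodes an inhibitor of the GCN2 kinase, which slows translation when amino acids run short. It lies on chromosome 18 from 12955852 to 12992950 on the plus strand (ENSMUSG00000024423, 16 exon blocks). Its CPM ran from 344 to 898 (median 603) in PFC CTR, from 369 to 915 (median 689.8) in PFC mCRS, from 353 to 1060.4 (median 573) in NAc CTR and from 299 to 712 (median 538) in NAc mCRS. Of the PFC mCRS libraries 10 of 15 lay above the CTR median and of the NAc mCRS libraries 6 of 16. The fitted differences were 0.15 (SE 0.15) in the PFC and -0.17 (SE 0.14) in the NAc, and NAc minus PFC was -0.02 (SE 0.15) in CTR and -0.34 (SE 0.14) in mCRS. Without NAc CTR 7 the difference in the NAc was -0.09 (SE 0.13) and that between the regions in CTR -0.09 (SE 0.14). The interaction was -0.32 (SE 0.20), and -0.24 (SE 0.20) without its highest library, NAc CTR 2.

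**Figure D4:**
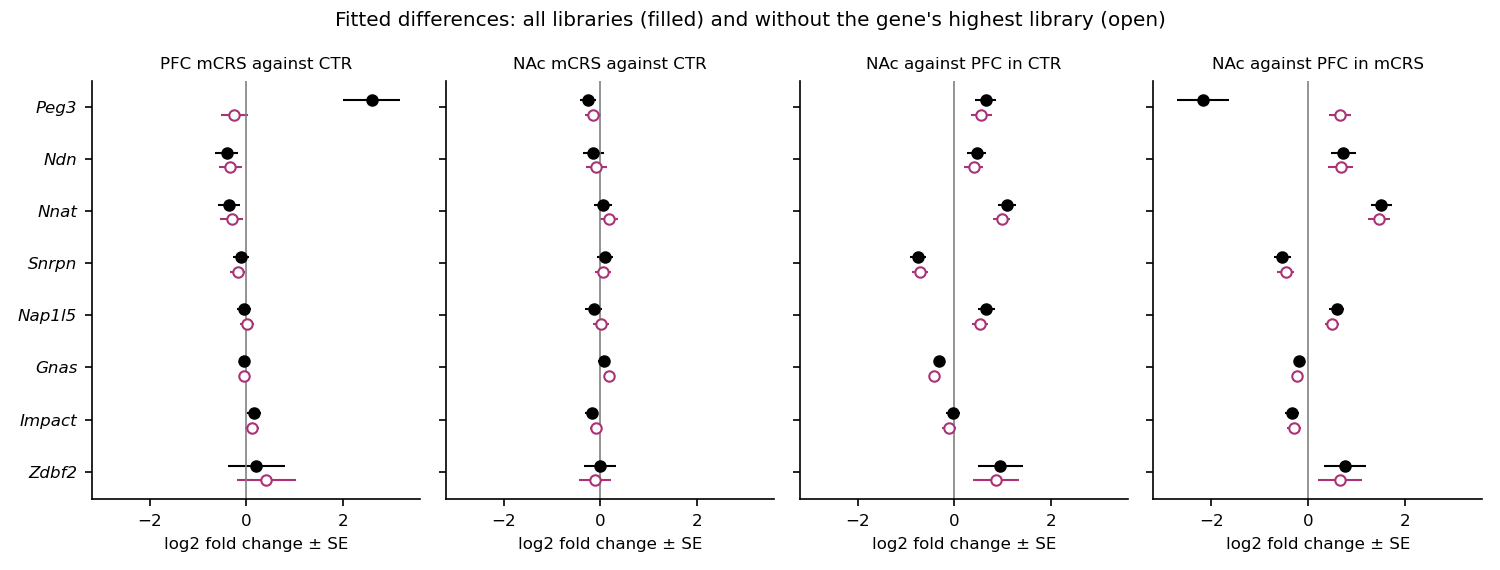
Log2 fold change with its SE (x axis) of the 8 genes in 4 comparisons, from edgeR with all libraries (filled) and without the highest library of the gene (open). Filled and open points lie near each other except for Peg3, which moves from 2.59 to -0.25 in the PFC and from -2.17 to 0.66 between the regions in mCRS.

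Counted over all 8 genes, the share called has to be read beside the background of each comparison, and nothing is drawn from it since the genes were chosen with these contrasts known. At a Benjamini-Hochberg FDR below 0.05 in edgeR, 0 of the 8 passed for mCRS against CTR in the PFC, where 0% of the 8916 tested genes passed, and 0 of the 8 in the NAc, where 0.00986% of 10141 did. At an unadjusted p below 0.05 these counts were 1, which was Peg3, and 0, where 312 and 207 of all genes tested fell below it, and DESeq2 called 0 in both regions. Between the regions 3 of the 8 passed in CTR (Nnat and Nap1l5 higher, Snrpn lower in the NAc; background 6.32% of 9932 genes). Without NAc CTR 7 the count was 4, with Gnas lower in the NAc as well. In mCRS 3 of the 8 passed as well (Nnat and Nap1l5 higher, Peg3 lower; background 6.31% of 9452 genes), and the count was 2 without PFC mCRS 3, where the direction of Peg3 turned. For the interaction 0 of the 8 passed (background 0.00907% of 11025 genes), with 1 at an unadjusted p below 0.05, again Peg3, against 341 of all genes, and 0 called by DESeq2.

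Apart from imprinted genes, some lists of cell type markers differed between the regions, and others differed less. Median sums of 6 astrocyte genes were 3583 CPM in PFC CTR, 3311 in NAc CTR, 3235 in PFC mCRS and 3269 in NAc mCRS. In the same order, those of 7 microglia genes were 399, 452, 372 and 435 CPM. For 4 endothelium genes they were 219, 236, 181 and 146 CPM. The summed CPM of 8 oligodendrocyte genes ran from 1730 to 7125 in the PFC and from 5241 to 8613 in the NAc, and that of 5 genes of all neurons from 4399.9 to 6880.0 in the PFC and from 2567 to 4763 in the NAc. The 10 hypothalamus markers summed to between 300.1 and 867 CPM in the PFC, where 5 of them in CTR and 3 in mCRS had a median of 0, and to between 754 and 3824 CPM in the NAc, where none did. Of this list, Sst alone had a median of 526 CPM in PFC CTR and 511 CPM in PFC mCRS. The list sum had medians of 585 and 630 CPM there. In the NAc the median of Sst was 442 CPM in CTR and 461 CPM in mCRS. The part of these marker lists in the regional differences of the imprinted genes was not tested. In such bulk samples fewer cells of a type and less RNA per cell cannot be told apart.

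Within the NAc several imprinted genes went with the hypothalamic peptide genes from library to library. Avp plus Oxt ranged widely there, with medians of 79.6 CPM (Avp) and 92.7 CPM (Oxt) in CTR and 217 and 82.0 CPM in mCRS. For the r that follow, the mean of each group was first subtracted from both values. Across the 32 NAc libraries the sum of Avp and Oxt on the log2 scale had r = 0.71 with Gnas, 0.70 with Ndn, 0.69 with Nap1l5 and 0.66 with Nnat. Without NAc CTR 7 the values were 0.68, 0.71, 0.65 and 0.62 over 31 libraries. Snrpn was at 0.49, Impact at 0.28, Peg3 at 0.26 and Zdbf2 at 0.0035 over all 32. In the PFC, where Avp and Oxt were near 0, the highest of these r was 0.38, for Nap1l5 (n = 30). Without PFC mCRS 3 that r was 0.46 (n = 29). The points share tissue dissection, library and normalization, and these r are a description.

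**Figure D5:**
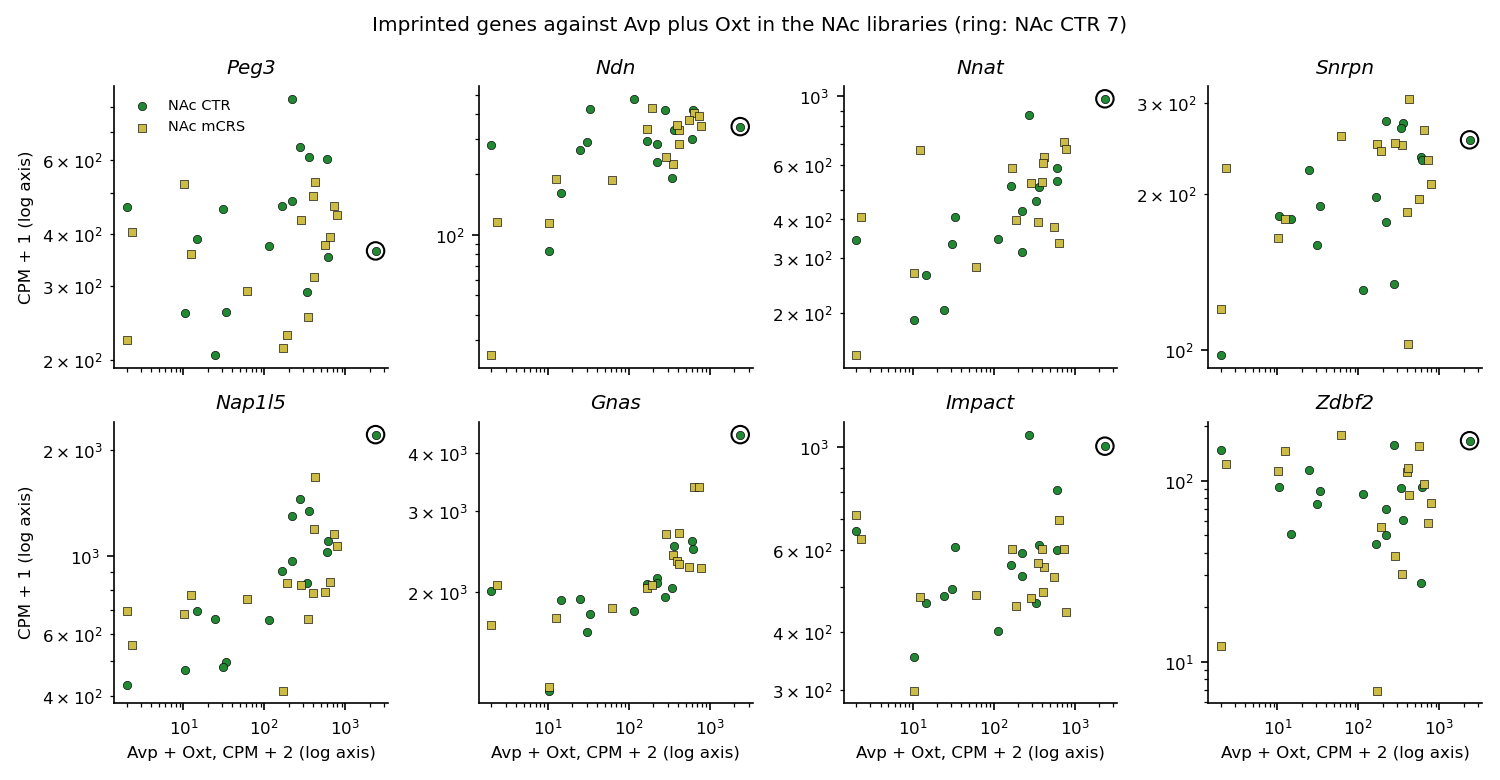
CPM plus 1 of each imprinted gene (y axis, log scale) against Avp plus Oxt, CPM plus 2 (x axis, log scale), in the 16 CTR and 16 mCRS libraries of the NAc. Ndn, Nnat, Nap1l5 and Gnas rise along the x axis (r from 0.66 to 0.71), Zdbf2 does not (r = 0.0035), and the ringed library is NAc CTR 7. The r were taken with group means subtracted, while the points are drawn without that step.

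The 8 genes also varied with each other once the group means had been subtracted. Over 62 libraries 22 of the 28 pairs had r above 0, with a median of 0.18. The highest were Nap1l5 with Gnas (0.52), Nnat with Gnas (0.51) and Nnat with Nap1l5 (0.46), which were 0.42, 0.45 and 0.40 over the 61 libraries without NAc CTR 7, and the lowest was Snrpn with Zdbf2 (-0.31). In 24 of the 28 pairs r was higher in the NAc (median 0.25, 32 libraries) than in the PFC (median 0.04, 30 libraries). Of all 11022 genes compared, those most like Gnas were Sparc (r = 0.75), Oxt (0.63) and Avp (0.60), and those most like Nap1l5 were Oxt (0.62), Avp (0.58) and Sparc (0.58). Nnat was most like Oxt (0.56), Sec63 (0.55) and Sparc (0.51). The r of the genes most like each member were taken over all 62 libraries, PFC mCRS 3 and NAc CTR 7 included. They were not computed without these libraries. For Gnas, Nap1l5 and Nnat none of the 3 genes is in the imprinted lists. Nor is any of the 3 genes most like Peg3 (Dctn6, 0.55, Crim1, 0.50, and Map4k4, 0.50). The same held for Ndn (Sobp, 0.66, Samd12, 0.61, and Cxxc5, 0.57), Snrpn (Pes1, 0.56, Cep170, 0.54, and Prdx2, 0.52), Impact (Rps14, 0.57, Ndufa4, 0.56, and Sparcl1, 0.55) and Zdbf2 (Trir, 0.50, Zdhhc14, 0.47, and Kbtbd2, 0.46).

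Lists of other imprinted genes and of imprint control genes were also chosen with earlier results of these data known. Their p-values, FDR and calls are therefore a description and no independent test. The first list holds 64 other imprinted genes, of which 36 are among the counted genes, and was compared between the regions as well. In CTR, 2 of 33 tested were higher in the NAc and 0 lower (background 2.09% higher and 4.23% lower). Above 0 were 24 of 33, with a median log2 difference of 0.41, against 5073 of 9932 and 0.02 over all genes. In mCRS 2 of 32 were higher and 0 lower (background 2.07% and 4.23%). Above 0 were 20 of 32, with a median of 0.35, against 4901 of 9452 and 0.03 over all genes. Dlk1 (chromosome 12, 109452823 to 109463336), a paternally expressed membrane protein of the Notch ligand family, passed in both. The expression filter, set by group, keeps a gene that is counted in a single region. Such a gene enters only through the region where it is high, so these shares and medians are a description.

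Dlk1 ran from 0 to 30.3 CPM (median 2.11) in PFC CTR and from 45.7 to 298 CPM (median 149) in NAc CTR. The top value was that of NAc CTR 7, and the highest of the other NAc libraries was 236 CPM. In mCRS it ran from 0 to 42.8 CPM in the PFC, the top value being PFC mCRS 3, and from 5.29 to 211 CPM (median 105) in the NAc, and there the ranges overlapped. The log2 difference was 4.27 (SE 0.59, edgeR, FDR = 2.09e-07) in CTR, 4.16 (SE 0.60) without NAc CTR 7, and 3.83 (SE 0.69, edgeR, FDR = 5.23e-05) in mCRS. With no filter on low counts the FDR in edgeR was 1.49e-07 in CTR and 3.57e-05 in mCRS.

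Inpp5f (chromosome 7, 128611328 to 128696425), a phosphatase of phosphoinositides with a variant from the paternal copy in brain that these counts do not separate, was higher in the NAc of CTR mice. It ran from 18.2 to 221 CPM (median 56.9) in the PFC and from 85.4 to 282 CPM (median 153) in the NAc, a log2 difference of 1.26 (SE 0.29, edgeR, FDR = 0.00196). In mCRS it was 0.64 (SE 0.34, edgeR, FDR = 0.403). Usp29 (chromosome 7, 6730578 to 6967219), a ubiquitin protease gene with a start beside that of Peg3, passed in mCRS with 1.68 (SE 0.54, edgeR, FDR = 0.0468). That call held in 4 of 9 alternatives, with an FDR from 0.0120 to 0.0886 in edgeR or DESeq2. It was lost without PFC mCRS 3 (0.0634) and without NAc mCRS 10, its highest library (0.0886). It was also lost with log2 library size (0.0744), the block of listing (0.0509) or the replicate block (0.0503) in the fit. In CTR it was 0.76 (SE 0.34, edgeR, FDR = 0.231). The interaction was 0.93 (SE 0.63) for Usp29 and -0.63 (SE 0.45) for Inpp5f, each with an FDR of 0.99997 in edgeR.

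For mCRS against CTR, 0 of 30 other imprinted genes passed in the PFC and 0 of 34 in the NAc with edgeR, and in neither region did any reach an unadjusted p below 0.05 (0 genes). DESeq2 also called 0 in each. Their median log2 fold changes were -0.04 and -0.08, against -0.01 over all genes in both regions. The smallest unadjusted p was that of Usp29 in the PFC (-0.97, SE 0.60, edgeR, p = 0.111) and of Dlk1 in the NAc (-0.50, SE 0.29, edgeR, p = 0.0883). For the interaction edgeR called 0 of 35 (1 at an unadjusted p below 0.05, and 0 called by DESeq2). That gene was Plagl1 (3.55, SE 1.67, edgeR, p = 0.0367), a zinc finger gene with no count in 12 of 15 PFC mCRS libraries and 80 of its 106 PFC mCRS counts in PFC mCRS 3. Without NAc mCRS 3, its highest library, it was 2.98 (SE 1.69, edgeR, p = 0.0824).

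Genes linked to imprint control formed the last list, with 18 of 22 counted, also chosen with earlier results of these data known. It holds genes that set, keep or remove DNA methylation and genes of proteins that bind DNA or act on histones. Dnmt3a, a DNA methyltransferase that sets new marks, was the only one of the 18 to pass, between the regions in CTR, and 0 were lower (median of the list 0.11, against 0.02 over all genes). The background of that contrast was 6.32% of all genes, so 1 of 18 is near it and is no result about the list. It ran from 28 to 142 CPM (median 61.9) in the PFC and from 74.3 to 227 CPM (median 116) in the NAc, a log2 difference of 0.89 (SE 0.27, edgeR, FDR = 0.0314). The call was lost without NAc CTR 4, its highest library (0.80, FDR = 0.0729), the upper end of a range that began at 0.00296 over 9 alternatives.

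In mCRS 0 of the 18 imprint control genes passed between the regions in edgeR, with 3 at an unadjusted p below 0.05, against 1395 of all 9452 genes, and 0 called by DESeq2. Dnmt3a had the smallest p there (1.01, SE 0.43, edgeR, p = 0.0228). Without NAc mCRS 6, its highest library, it was 0.83 (SE 0.44, edgeR, p = 0.0639). For mCRS against CTR 0 of 18 passed in either region, with 1 at an unadjusted p below 0.05 in each and 0 called by DESeq2. Over all genes 312 of 8916 in the PFC and 207 of 10141 in the NAc fell below that p. The genes of this list were Cbx5, the gene of heterochromatin protein HP1 alpha, in the PFC (0.73, SE 0.30, edgeR, p = 0.0170) and Trim28, the corepressor that ZFP57 recruits, in the NAc (0.48, SE 0.23, edgeR, p = 0.0425). Without PFC mCRS 7, its highest library, Cbx5 was 0.61 (SE 0.30, edgeR, p = 0.0489). Trim28 was 0.31 (SE 0.22, edgeR, p = 0.168) without its own, NAc mCRS 6. The interaction called 0 of 18 in edgeR and 0 in DESeq2, with Cbx5 alone at an unadjusted p below 0.05 (-1.17, SE 0.38, edgeR, p = 0.00300), against 341 of all 11025 genes. Without PFC mCRS 7 it was -1.02 (SE 0.38, edgeR, p = 0.00898).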

How the data were processed

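Whole tissue of the PFC and NAc was profiled by BRB-seq in 62 libraries. Reads were aligned by the authors to GRCm38 with STAR, and they counted uniquely mapped reads per gene with HTSeq (version 0.9.1 in the submitters' processing notes), and removed PFC samples of poor quality. The deposited table holds these raw counts, with no molecular identifiers. The annotation release and strand setting are not given in the sources used here. Each column was matched to its sample by title. Counts were fitted with the quasi-likelihood test of edgeR 4.0.16 in R 4.3.3 (TMM, default expression filter) on the libraries of each comparison, the interaction on all 62, and p-values were adjusted by Benjamini-Hochberg over all genes tested. The SE of a fold change is its size divided by the square root of the F statistic. CPM correlations used log2 values with a prior count of 2. DESeq2 1.42.0, other filters and normalizations, covariates, a replicate block and left-out libraries were the alternatives. The steps were tested on simulated data. Without the highest library of a gene, that gene was read from a fit of all genes on the remaining libraries. The members and gene lists were chosen with earlier results of these data known. Genes named beyond the members are those past the FDR threshold, the smallest p of a list with no call, and the 3 genes most like each member. Library totals of 945286 to 4857359 counts limit the precision of genes with few counts.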

Additional observations from a re-analysis of the deposited data

How the results depend on the processing

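Over the alternatives, all 350 values of the 7 genes other than Peg3 stayed within 1 SD of the replicates, while of 50 values of Peg3 37 did, 4 moved and 9 turned sign. This SD is that of log2 CPM between libraries, which is a loose bound for a difference of groups. A turned sign was counted as within it where the difference was small beside its SE, as for Nap1l5 and Zdbf2 in the NAc. Peg3 in the PFC was -0.22 with DESeq2, which replaced the outlying count, -0.055 with the replicate block and -0.25 without PFC mCRS 3, and it ran from -0.25 to 2.69 with each library left out in turn. Between the regions in mCRS it was 0.68, 0.56 and 0.66 under the same 3 settings. Its mean in PFC mCRS was 1386 CPM on raw library totals with every library, and 234 CPM on TMM-scaled sizes without PFC mCRS 3. Leaving out PFC mCRS 3 or NAc CTR 7 as a setting of its own was chosen after seeing the data. Other imprinted genes called between the regions numbered 5 with DESeq2 in CTR, and 1 in mCRS with log2 library size or the block of listing as a covariate, or without PFC mCRS 3. Imprint control genes called in CTR numbered 2 with DESeq2 and 0 without the highest library of each gene. Between the regions in mCRS, DESeq2 called 5 of the 8 members beside 903 of the 11121 counted genes (596 in edgeR). Nothing is read from that count of members. For mCRS against CTR in the PFC, the count of 0 over all genes became 5 with DESeq2. The cause of these changes was not tested.

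The replicate numbers showed no pairing of the libraries: the correlation of same-numbered libraries ran from -0.03 to 0.05, with 0 above 0.1. Such low values do not exclude that same-numbered PFC and NAc libraries share a mouse. With the replicate block, 1 gene passed in the PFC and 0 in the NAc and for the interaction, and FDR was 0.0503 for Usp29 in mCRS and 0.0527 for Dnmt3a in CTR.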

Other observations

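Other genes also had a single high library. In the PFC, Ugp2 stood 29.3-fold above the median of the rest in PFC CTR 3 and Csmd1 22.6-fold in PFC CTR 15. In the NAc, Ilf2 was 15.5-fold above it in NAc mCRS 4 and Enpp2 13.95-fold in NAc mCRS 10, where 3 counted genes of the choroid plexus summed to 23863 CPM.

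The counts come from whole tissue and do not separate parental copies, transcripts of one locus or cell types. The members were chosen from results of these data, so nothing is read from their calls, and the labels do not tie PFC and NAc libraries to mice.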
